A study of Mus musculus with 12 samples.

Results

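The nuclear genes for subunits of the oxidative phosphorylation (OXPHOS) complexes were examined in the lungs of mice with and without Il10 in their B cells. They were chosen by gene symbol, as every gene whose symbol begins with Ndufa, Ndufb, Ndufs, Ndufv, Ndufc, Uqcr, Cox4 to Cox8 or Atp5, or is Sdha, Sdhb, Sdhc or Sdhd. Cox4i2, Ndufa4l2, pseudogenes with -ps in their symbol and the Ndufaf assembly factors were left out. The rule itself used no measured value, though it was set with earlier results of these data known. It took 90 of the 55414 genes in the table, under 89 symbols since Atp5o is listed with 2 gene IDs. Of these, 83 had a level of at least 1 TPM (a level scaled by transcript length and library total) in at least 6 lungs and were tested.

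The lungs came from 12 mice of C57BL/6J background. The genotypes were IL-10 B-WT, with 6 mice, and IL-10 B-KO, also with 6. In the IL-10 B-KO mice, called knockout below, a floxed Il10 gene was deleted by Mb1-Cre, a Cre driven from the gene for the B cell receptor component CD79A and so active in B cells, and the IL-10 B-WT mice were the corresponding controls, called control below, whose alleles are not stated more closely in the sources used here. All 12 mice received LPS (lipopolysaccharide, from the outer membrane of bacteria), at 50 µg, to induce acute lung injury, and whole-lung RNA was taken on day 4, so that no lung without LPS enters the comparison. The ages and sexes of these mice are not stated. The comparison asks how the loss of IL-10 from B cells changes gene expression in the injured lung. TPM keep no sequencing depth, and the precision rests on the spread between 6 lungs of a genotype.

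OXPHOS is carried out in the inner mitochondrial membrane. Complex I (NADH dehydrogenase) and complex II (succinate dehydrogenase) pass electrons to ubiquinone, complex III passes them to cytochrome c and complex IV (cytochrome c oxidase) to oxygen. Complexes I, III and IV pump protons, and complex V (ATP synthase) uses their return to make ATP. Most subunits are encoded in the nucleus, a few by mitochondrial DNA, and the nuclear genes are active in all tissues, except for some isoforms of complex IV subunits that belong to heart and skeletal muscle. In the lung, alveolar type 2 cells are known for many mitochondria, whereas neutrophils hold few.

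The 12 libraries differed in ways that touch these genes. Control replicate 5 stood apart. Genes encoded by mitochondrial DNA held 30.5% of its TPM, against 4.63% to 15.8% in the other 11 libraries, and 45.3% with the nuclear copies of mitochondrial DNA that share their sequence. This library had the lowest level of the 12 for 74 of the 83 subunit genes. Immunoglobulin genes held 15.4% of TPM in control replicate 2 and 0.248% to 2.19% in the other control lungs, but at most 0.0648% in the knockout lungs. Il10 itself was listed at 0 to 0.88 TPM in the control lungs and at 0 to 0.58 TPM in the knockout lungs, levels that did not separate the genotypes (two-sided exact permutation test, p = 0.745, n = 6). All 6 B cell markers had lower means in the knockout lungs (summed levels of 66.05 to 795 TPM in control and 5.21 to 74.5 TPM in knockout lungs) and Cd79a passed the test, but it was listed at 4.35 and 5.73 TPM in knockout replicates 2 and 6 and at 0 to 0.05 TPM in the other 4 knockout lungs. The main results for the subunit genes are given with and without these libraries.

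The levels of the subunit genes differed between the complexes. The mean level over the 12 lungs had a median of 90.2 TPM across the 38 tested genes of complex I and 88.8 TPM across the 4 of complex II, against 213 TPM across the 8 of complex III, 220 TPM across the 16 of complex IV and 215 TPM across the 17 of complex V. In complex I the highest level was that of Ndufa6, an accessory subunit, with a mean of 239 TPM, and the lowest that of Ndufb4 at 21.5 TPM, a level that depends on how reads were divided with its copy Ndufb4c. Of the catalytic core, Ndufs1, the largest iron-sulfur subunit, was at 28.5 TPM and Ndufv1, which binds NADH, at 45.8 TPM. In complex III the means ran from 53.0 TPM for Uqcrc2, a core protein, to 364 TPM for Uqcr10, a small accessory subunit. Cox6a1 of complex IV was the highest of all with 663 TPM, followed by the catalytic beta subunit of ATP synthase, Atp5b, with 601 TPM. The SD over 6 lungs was 85.3 TPM in control lungs for Cox6a1 and 188 TPM for Atp5b, so that the order of these neighbours is not resolved. The 3 genes for the c subunit of the ATP synthase ring, Atp5g1, Atp5g2 and Atp5g3, were at 116, 11.6 and 202 TPM. The level of Atp5g2 depends on how reads were divided with Gm10175, which shares part of its sequence and had a mean of 329 TPM.

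Of the 7 genes not tested, 5 were listed at 0 in all lungs: Ndufa11b, Ndufb11b, Cox6c2, Cox7b2 and the second ID of Atp5o. Cox8c, known from testis, was listed at 0.25 TPM in 1 lung, control replicate 5. Ndufs6b was listed at 0.49 TPM in 1 lung, knockout replicate 2. The lowest tested genes by their mean were Cox7a1 with 9.75 TPM and Cox8b with 10.3 TPM, which ranged down to 1.98 TPM and 0.47 TPM in single lungs.

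Between the genotypes no subunit gene passed the test. With limma on log2(TPM + 1) over 15148 genes and Benjamini-Hochberg adjustment, 0 of 83 had an adjusted p of at most 0.05, the lowest being 0.251 for Atp5mpl. Of all genes tested, 0.0264% passed as higher and 0.495% as lower in knockout lungs. With an unadjusted p of 0.05 or less, 10 of the 83 were higher in knockout lungs, where 6.83% of all genes were, and 0 were lower, where 5.71% of all genes were. The log2 fold change (knockout minus control) was above 0 for 79 of the 83, against 63.2% of all genes. Its median was 0.29 over the subunit genes and 0.10 over all genes tested, a distance of 0.19. The groups of 6 lungs did not overlap for 1 subunit gene, Atp5mpl, which was higher in knockout lungs (0.0924% of all genes), and for 0 that were lower (0.924% of all genes).

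**Figure D1:**
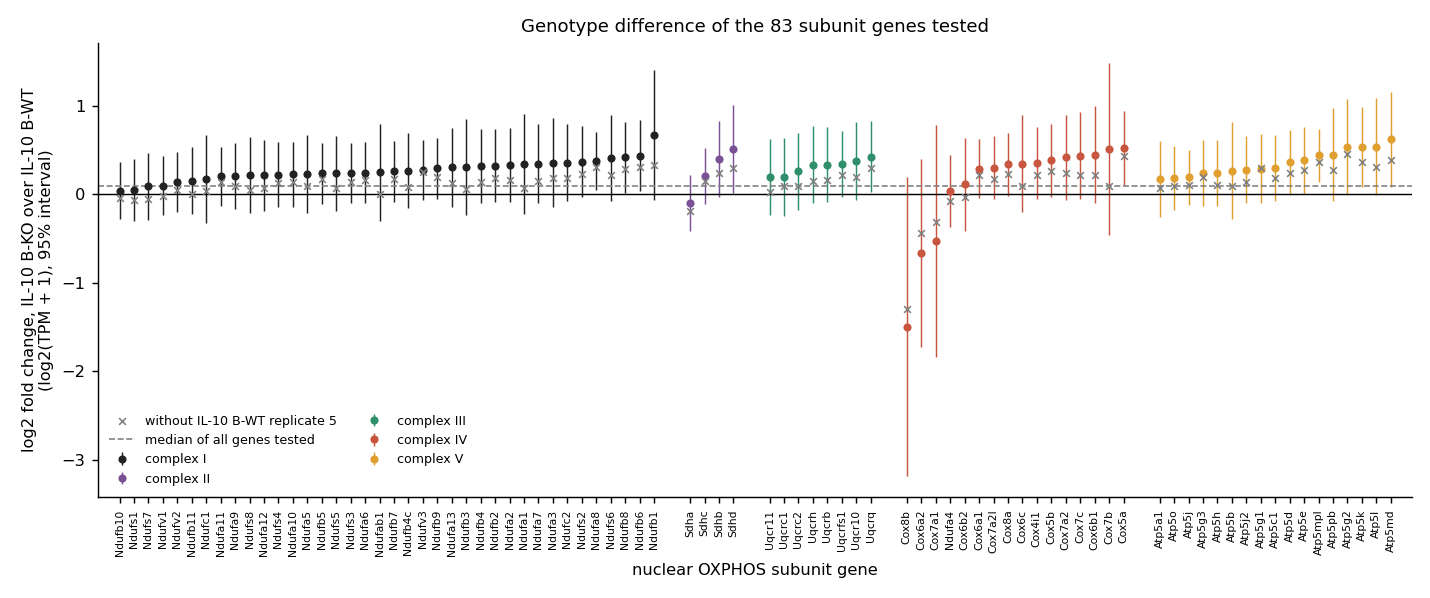
Log2 fold change (vertical axis, knockout over control on log2(TPM + 1)) of the 83 tested subunit genes, sorted within each complex, with the 95% interval from limma as bars. Crosses give the value without control replicate 5 and the dashed line the median of all genes tested; 79 of the 83 points lie above 0, and Cox8b, Cox6a2, Cox7a1 and Sdha lie below it.

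The difference was smaller without control replicate 5, when 5 of the 83 genes were higher at an unadjusted p of at most 0.05, where 3.19% of all genes were, and the log2 fold change was above 0 for 73, where 47.4% of all genes were. The median of the subunit genes was then 0.15 and that of all genes -0.02, so that the distance between them was 0.17. Knockout replicate 1, at the other end, had the highest level of the 12 libraries for 30 of the 83 genes. Without control replicate 2, with its high immunoglobulin share, 4 genes were higher at this threshold (5.91% of all genes), and without knockout replicate 2 or 6, which kept B cell transcripts, 19 (11.2%) and 7 (4.35%).

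The 5 complexes varied together from lung to lung. For each lung, the deviation of every subunit gene from its own mean over the 12 lungs was taken, and the median over the 83 genes ranged from -0.80 to 0.11 in control lungs and from -0.09 to 0.31 in knockout lungs on the log2 scale. Without control replicate 5 the lowest control value was -0.18, that of control replicate 2. Knockout replicates 1, 3 and 5 had medians of 0.31, 0.27 and 0.31, above all control lungs, whereas knockout replicates 2, 4 and 6 had medians of -0.09, 0.09 and 0.03 and lay among the control lungs. The correlation of a gene with the median profile of the others over the 12 lungs had a median of 0.90 across the 83 genes (0.79 without control replicate 5), a description in which all genes share the scaling of a library. The lowest values were those of Cox8b, Cox6a2 and Cox7a1 with -0.34, -0.32 and -0.28, followed by Sdha with 0.45, Atp5g1 with 0.54 and Ndufa4 with 0.56.

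**Figure D2:**
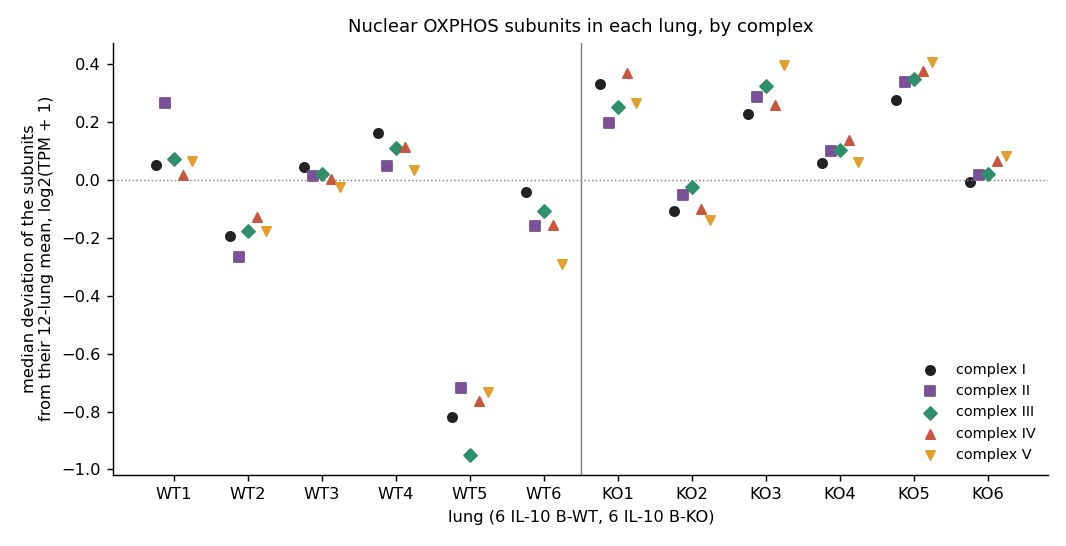
Median deviation of the tested subunit genes of each complex from their mean over 12 lungs (vertical axis, log2(TPM + 1)) in each of the 12 lungs (horizontal axis, WT1 to WT6 for control replicates 1 to 6 and KO1 to KO6 for knockout replicates 1 to 6). The 5 complexes stay close together within a lung, WT5 is the lowest with values from -0.95 to -0.72, and KO1, KO3 and KO5 are the highest except in complex II, where WT1 lies above KO1.

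The share of a library that the subunit genes held was then measured against several totals. Of all TPM, their sum made up 1.252% ± 0.266 in control and 1.52% ± 0.18 in knockout lungs (mean ± SD, n = 6), with 0.750% in control replicate 5 and 1.23% to 1.46% in the other control lungs. Without that library the control share was 1.35% ± 0.11 (n = 5). When genes encoded by mitochondrial DNA and their 7 nuclear copies were taken out of the total, the share was 1.56% ± 0.17 and 1.82% ± 0.11, and the lungs ranged from 1.36% to 1.78% and from 1.64% to 1.94%. When globin and immunoglobulin genes were also taken out, it was 1.75% ± 0.13 and 1.85% ± 0.10, ranging from 1.63% to 2.01% and from 1.69% to 1.96%. Control replicate 5 then held 1.71%, within the range of the other control lungs. The groups overlapped under each of these totals.

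**Figure D3:**
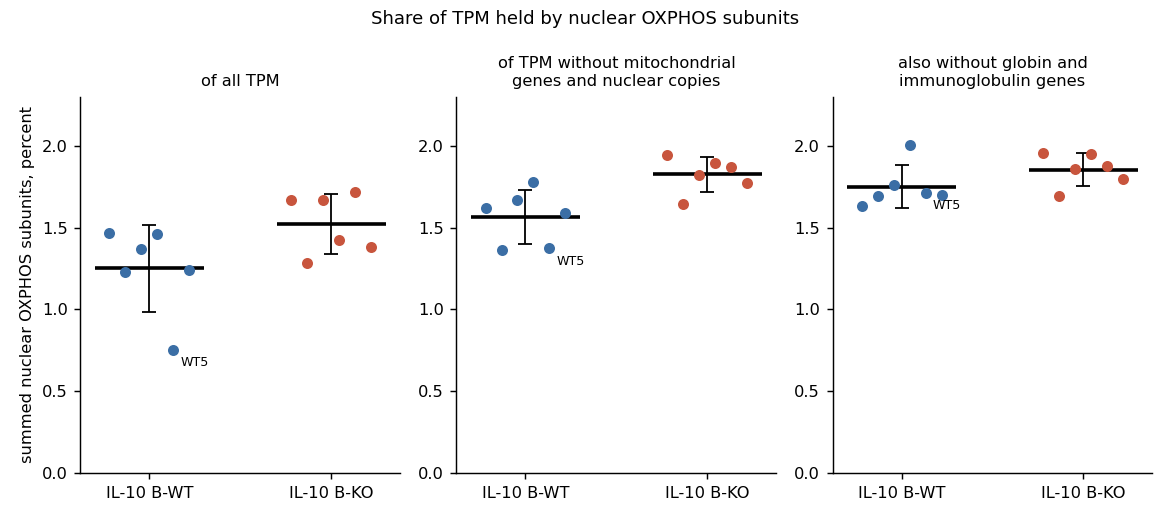
Summed nuclear OXPHOS subunit genes as a percent (vertical axis, from 0) of all TPM, of TPM without mitochondrial genes and their nuclear copies, and of TPM also without globin and immunoglobulin genes. Points are single lungs, 6 per genotype, lines and bars the mean and SD; WT5 (control replicate 5) is at 0.750% in the first panel and at 1.71% in the last.

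The test was repeated on TPM rescaled to these totals, which was decided after seeing the data. Without mitochondrially encoded genes and their nuclear copies, 26 of the 83 genes were higher in knockout lungs with an unadjusted p of 0.05 or less (9.52% of all genes) and 76 had a log2 fold change above 0 (54.1% of all genes), and 0 passed the adjusted test, the lowest adjusted p being 0.169. When globin and immunoglobulin genes were also left out, 6 were higher (5.14% of all genes), 1, Sdha, was lower (14.5% of all genes), and 60 had a log2 fold change above 0 (37.8% of all genes). The median of all genes then went from 0.10 to -0.10 and that of the subunit genes from 0.29 to 0.07, so that the distance between them was 0.17. Both the count and the direction of single genes therefore depended on the total. The distance of the subunit genes from the median of all genes lay between 0.10 and 0.28 over the scalings, filters and left-out libraries tried. Rescaling or centring a library shifts all its genes nearly alike on the log2 scale, so that these settings could hardly change this distance.

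Marker lists of other cell types also had different means in the genotypes. All 6 neutrophil markers had higher means in knockout lungs, with a summed level of 284 to 2511 TPM in control and 1046 to 7524 TPM in knockout lungs, and so had all 6 markers of monocytes and interstitial macrophages (164 to 2133 and 376 to 2932 TPM) and all 6 of alveolar type 2 cells (3290 to 17070 and 11460 to 20830 TPM). None of these 18 genes was at 0 in any lung or passed the adjusted test. Control replicate 5 had the lowest sum of all 12 lungs for each of the 3 lists. The 5 markers of proliferating cells all had log2 fold changes above 0 as well, with sums of 11.35 to 196 TPM in control lungs, the lowest again in replicate 5, and 55.7 to 169 TPM in knockout lungs. Other lists lay below 0 with all their genes, namely the 5 endothelial (median -0.38), 5 smooth muscle (-0.91), 4 club cell (-1.0) and 5 erythroid markers (-1.29). Control replicate 5 had the highest sums of the 12 lungs for endothelial and erythroid markers, 2533 and 96320 TPM. Without it, the medians of the neutrophil, monocyte, type 2 and proliferating lists went from 1.72, 1.42, 0.85 and 1.03 to 1.46, 1.13, 0.53 and 0.66. Those of the endothelial, smooth muscle, club cell and erythroid lists were then -0.29, -0.83, -1.17 and -0.97. No gene of the proliferating cell, endothelial, smooth muscle, club cell and erythroid lists passed the adjusted test or was at 0 in any lung. T cell, alveolar macrophage, alveolar type 1, ciliated cell and fibroblast markers had log2 fold changes on both sides of 0. Of the 6 alveolar macrophage markers only Car4 lay below 0 (-0.82), and of the 5 ciliated cell markers only Foxj1 lay above it (0.09). In bulk tissue, fewer cells of a type and less RNA per cell cannot be told apart, and the part of these cells in the subunit levels was not tested.

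In complex I, all 38 tested genes had a log2 fold change above 0, with a median of 0.25 and values from 0.04 for Ndufb10 to 0.67 for Ndufb1, and 34 of them stayed above 0 without control replicate 5. Of the 38 genes, 3 were higher at an unadjusted p of at most 0.05, where 6.83% of all genes were. They were the accessory subunits Ndufa8, Ndufb6 and Ndufb8. Ndufa8 ranged from 57.7 to 88.8 TPM in control lungs (median 78.1) and from 78.5 to 119 TPM in knockout lungs (median 96.1). Its groups overlapped, with 4 knockout lungs above all control lungs (log2 fold change 0.38, 95% interval 0.05 to 0.71, limma adjusted p = 0.353). Ndufb6 and Ndufb8 had log2 fold changes of 0.44 and 0.42 with adjusted p-values of 0.372 and 0.381 in limma.

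Ndufs1 and Ndufv1 had some of the smallest fold changes of complex I. Ndufs1 ranged from 18.3 to 33.4 TPM in control lungs (median 29.2) and from 24.8 to 34.5 TPM in knockout lungs (median 28.2). Its log2 fold change was 0.05 (95% interval -0.30 to 0.40) and -0.07 without control replicate 5, and it lay on either side of 0 depending on the scaling. Ndufv1 ranged from 29.1 to 51.2 TPM in control lungs (median 46.7) and from 39.6 to 53.9 TPM in knockout lungs (median 48.0), a log2 fold change of 0.10 (95% interval -0.23 to 0.43) that was -0.02 without control replicate 5. The lungs of the genotypes overlapped for both genes, and control replicate 5 was the lowest of the 12.

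Ndufb1 had the largest fold change but also the widest interval of complex I, -0.06 to 1.399, and its log2 fold change was 0.33 without control replicate 5. Its gene ID is annotated as a non-coding RNA of a bidirectional promoter and not as protein-coding. Ndufb4 and Ndufb4c cannot be separated with certainty, since 100% of the 31-base words of Ndufb4c, a processed pseudogene in the annotation, occur in Ndufb4 and 38.3% of those of Ndufb4 occur in Ndufb4c. Their levels were 21.5 and 136 TPM over the 12 lungs, and their log2 fold changes 0.32 and 0.26.

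In complex II, the catalytic Sdha had a log2 fold change below 0 and the other subunits of succinate dehydrogenase one above 0. Sdha (chromosome 13, 74322254 to 74350280, minus strand, GRCm38), the flavoprotein that oxidizes succinate, ranged from 60.5 to 97.5 TPM in control lungs (median 87.8) and from 66.3 to 91.5 TPM in knockout lungs (median 79.7). No knockout lung was above all control lungs, and the log2 fold change was -0.10 (95% interval -0.41 to 0.22). Sdhb, the iron-sulfur subunit (chromosome 4, 140961203 to 140979193, plus strand), ranged from 45.0 to 109 TPM in control lungs (median 86.5) and from 85.6 to 129 TPM in knockout lungs (median 102). The groups overlapped, and the log2 fold change was 0.40 (95% interval -0.03 to 0.83). Sdhd, which anchors the complex in the membrane (chromosome 9, 50596357 to 50603812, minus strand), ranged from 36.4 to 112 TPM in control lungs (median 83.7) and from 90.7 to 132 TPM in knockout lungs (median 110). Its log2 fold change was 0.51 (95% interval 0.01 to 1.01, limma adjusted p = 0.382), and that of the other membrane anchor, Sdhc, was 0.21 (95% interval -0.11 to 0.52).

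**Figure D4:**
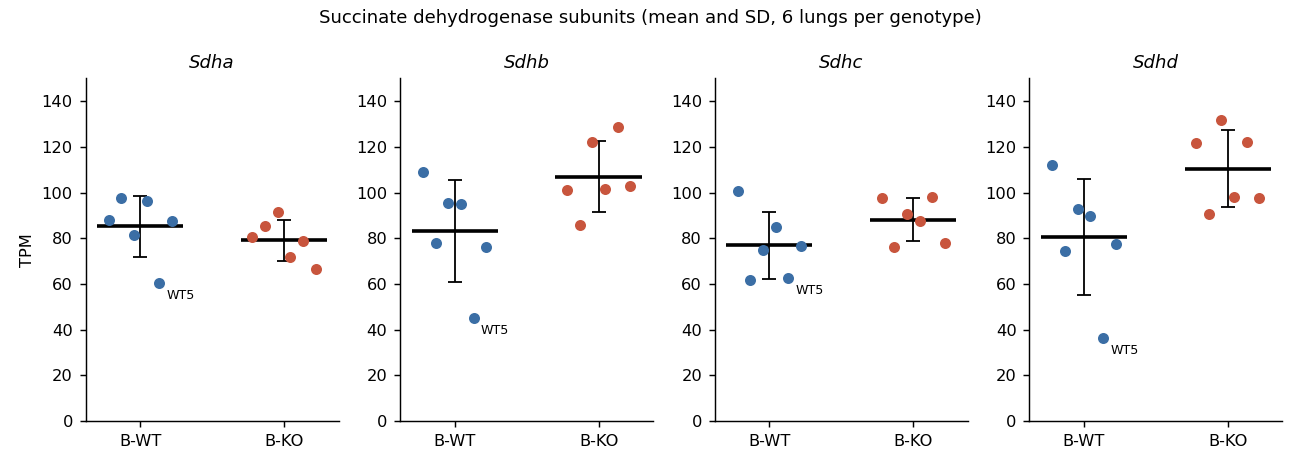
TPM (vertical axis, from 0) of the succinate dehydrogenase genes Sdha, Sdhb, Sdhc and Sdhd in 6 control and 6 knockout lungs; points are lungs, lines and bars the mean and SD. The knockout mean lies below the control mean for Sdha and above it for Sdhb, Sdhc and Sdhd, and WT5 (control replicate 5) is the lowest lung for Sdha, Sdhb and Sdhd.

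A ratio of 2 genes within a lung is free of the library's scaling, and the ratios to Sdha were compared after their values were seen. The ratio of Sdhb to Sdha was 0.744 to 1.24 in the control lungs and 1.00 to 1.64 in the knockout lungs, with means of 0.969 ± 0.201 and 1.36 ± 0.23 (SD, n = 6). In 5 of 6 knockout lungs it was above all control lungs, a difference of 0.50 on the log2 scale (two-sided exact permutation test, p = 0.013, adjusted over 3 ratios p = 0.0195). The ratio of Sdhd to Sdha was 0.933 ± 0.245 and 1.4 ± 0.178 (SD, n = 6), again with 5 of 6 knockout lungs above all control lungs (difference 0.62, exact p = 0.00866, adjusted p = 0.0195). Leaving out each lung in turn gave exact p-values from 0.00866 to 0.0281 for Sdhb and from 0.00649 to 0.0173 for Sdhd. The ratio of Sdhc to Sdha was 0.915 ± 0.172 and 1.12 ± 0.14 (SD, n = 6; difference 0.31, exact p = 0.0498, adjusted p = 0.0498), and it lost the threshold without control replicate 2, 3, 4 or 6 (exact p = 0.0974, 0.0628, 0.0758 and 0.0779) or knockout replicate 1, 4, 5 or 6 (exact p = 0.0974, 0.0974, 0.102 and 0.0844). Since the ratios were chosen for what the levels showed, they describe these lungs and are no independent test.

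In complex III, all 8 genes had a log2 fold change above 0, from 0.19 for Uqcr11 to 0.42 for Uqcrq, also without control replicate 5. Uqcrq, a small accessory subunit, ranged from 117 to 246 TPM in control lungs (median 199.6) and from 207 to 307 TPM in knockout lungs (median 252). The groups overlapped, with 3 knockout lungs above all control lungs (95% interval of the log2 fold change 0.02 to 0.83, limma adjusted p = 0.379). The Rieske iron-sulfur protein Uqcrfs1, a catalytic subunit, ranged from 32.7 to 62.2 TPM in control lungs (median 53.6) and from 53.4 to 77.6 TPM in knockout lungs (median 65.0). Its log2 fold change was 0.35 (95% interval -0.03 to 0.72) and 0.22 without control replicate 5.

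In complex IV, 13 of the 16 tested genes had a log2 fold change above 0 and 3 below it. Cox5a (chromosome 9, 57521274 to 57532426, plus strand), a matrix-side subunit, had the lowest p of the complex. It ranged from 101 to 189 TPM in control lungs (median 139) and from 136 to 262 TPM in knockout lungs (median 206), with 3 knockout lungs above all control lungs (log2 fold change 0.52, 95% interval 0.10 to 0.94, limma adjusted p = 0.328). The value was 0.43 without control replicate 5. Cox4i1, the ubiquitous form of the largest nuclear subunit, had a log2 fold change of 0.35 (95% interval -0.05 to 0.76). Cox7b varied the most over the 12 lungs apart from the muscle isoforms described below, from 53.9 TPM in control replicate 5 to 597 TPM in control replicate 1, with a log2 fold change of 0.51 that was 0.09 without replicate 5. Ndufa4, long counted with complex I but a subunit of complex IV, had a log2 fold change of 0.03 (95% interval -0.37 to 0.44).

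In complex V, all 17 tested genes had a log2 fold change above 0, from 0.17 for Atp5a1 to 0.62 for Atp5md, also without control replicate 5. Of the 17 genes, 4 were higher at an unadjusted p of at most 0.05, where 6.83% of all genes were. These 4, Atp5mpl, Atp5k, Atp5md and Atp5e, encode small subunits, 3 of them in the membrane part of the enzyme. Atp5mpl (chromosome 12, 111961375 to 111966977, minus strand), which encodes a small proteolipid, ranged from 140 to 207 TPM in control lungs (median 197) and from 227 to 284 TPM in knockout lungs (median 245). Every knockout lung was above every control lung, also above the 5 other than control replicate 5 (log2 fold change 0.44, 95% interval 0.14 to 0.74, limma adjusted p = 0.251). Its exact permutation p was 0.00216, the smallest that 924 arrangements of 6 against 6 lungs can give, and it was not adjusted for the number of genes.

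Atp5k (chromosome 5, 108433244 to 108434448, minus strand), subunit e, ranged from 104 to 227 TPM in control lungs (median 215) and from 196 to 320 TPM in knockout lungs (median 286). In 5 knockout lungs it was above all control lungs (log2 fold change 0.54, 95% interval 0.08 to 0.99, limma adjusted p = 0.343). Atp5md ranged from 72.9 to 234 TPM in control lungs (median 185) and from 201 to 311 TPM in knockout lungs (median 262), with 4 knockout lungs above all control lungs (95% interval of the log2 fold change 0.08 to 1.16, limma adjusted p = 0.351). Without control replicate 5 the values were 0.36, 0.37 and 0.39 for Atp5mpl, Atp5k and Atp5md.

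The catalytic subunits of complex V were less clear. Atp5a1 had a log2 fold change of 0.17 (95% interval -0.26 to 0.60) and Atp5b of 0.27 (95% interval -0.28 to 0.82). Atp5b ranged from 282 to 785 TPM in control lungs (median 551) and from 530 to 950 TPM in knockout lungs (median 555), so that the medians were nearly equal. Atp5l shares 54.3% of its 31-base words with Gm10221, Atp5g2 13.4% with Gm10175 and Cox7c 13.1% with Gm12338, all expressed here, so that the reads of these genes could be divided between them differently.

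Promoters of these genes are known for binding sites of nuclear respiratory factor 1 (NRF1), of GABP, a member of the ETS family, of the estrogen-related receptors (ERR) and of YY1. RefSeq promoters (GRCm38.p6, 250 bases before to 50 after the start) were found for 69 of the 83 tested genes and searched on both strands. NRF1 letters (GCGCNTGCG) were in 24 of the 69, or 34.8%, against 7.12% of all 27025 genes with a promoter and 9.68% of the protein-coding ones. ETS letters (CCGGAAG) were in 24.6% against 9.93%, ERR letters (AAGGTCA) in 11.6% against 5.38%, and YY1 letters (AAGATGGCG) in 10.1% against 1.64%. The matches are a description of these windows. At least 1 motif was found in 40 of the 69 and none in 29, and Atp5k, Atp5l and Sdhd had 3 kinds. The 4 promoters below are those of Atp5k and Sdhd, with the most kinds and among the genes with the largest fold changes, and of Cox8a and Cox8b, the ubiquitous and the muscle form of one subunit. Each is shown 5′ to 3′ from 150 bases before to 30 after the start, with motif matches in capitals.
Atp5k (chr5:108434370-108434549, minus strand): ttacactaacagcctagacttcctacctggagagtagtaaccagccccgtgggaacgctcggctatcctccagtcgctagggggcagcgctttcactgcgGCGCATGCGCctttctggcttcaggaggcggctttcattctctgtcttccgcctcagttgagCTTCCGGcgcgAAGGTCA
Sdhd (chr9:50603820-50603999, minus strand): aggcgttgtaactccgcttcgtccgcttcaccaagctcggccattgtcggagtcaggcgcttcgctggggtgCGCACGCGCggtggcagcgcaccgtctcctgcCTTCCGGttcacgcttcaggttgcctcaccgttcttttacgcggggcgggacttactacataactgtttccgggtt
Cox8a (chr19:7217587-7217766, minus strand): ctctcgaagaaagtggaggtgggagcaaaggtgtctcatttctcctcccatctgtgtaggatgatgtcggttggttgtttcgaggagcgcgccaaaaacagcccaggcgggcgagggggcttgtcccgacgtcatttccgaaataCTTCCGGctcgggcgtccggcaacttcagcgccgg
Cox8b (chr7:140900417-140900596, minus strand): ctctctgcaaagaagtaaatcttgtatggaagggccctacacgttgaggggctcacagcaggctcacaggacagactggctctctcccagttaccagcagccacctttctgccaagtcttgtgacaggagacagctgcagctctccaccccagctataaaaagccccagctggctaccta
The Atp5k window holds NRF1 letters on both strands that overlap, then ETS and ERR letters after the start, and the Sdhd window holds NRF1 and ETS letters before the start, with its ERR match beyond the end shown. Cox8a has ETS letters beside the start, whereas no motif was found in Cox8b.

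The muscle isoforms of complex IV had fold changes below 0, unlike their ubiquitous partners. Cox6a2, Cox7a1 and Cox8b are the heart and skeletal muscle forms of subunits whose ubiquitous forms are Cox6a1, Cox7a2 and Cox8a, and they were the 3 tested complex IV genes with a log2 fold change below 0, at -0.66, -0.53 and -1.495. None passed the test (limma adjusted p = 0.56, 0.709 and 0.446). Cox8b ranged from 0.78 to 47.8 TPM in control lungs (median 11.6) and from 0.47 to 14.7 TPM in knockout lungs (median 1.48), and the groups overlapped. Cox8a ranged from 315 to 532 TPM in control lungs (median 518) and from 511 to 674 TPM in knockout lungs (median 573), with 5 knockout lungs above all control lungs (95% interval of the log2 fold change -0.02 to 0.70).

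As a share of the pair, Cox8b made up 3.37% ± 3.23 in control and 0.762% ± 0.985 in knockout lungs (mean ± SD, n = 6, two-sided exact permutation test, p = 0.0866). Cox7a1 made up 11.2% ± 10.3 and 3.905% ± 1.92 of its pair (n = 6, exact p = 0.173), and Cox6a2 5.77% ± 4.25 and 2.74% ± 1.76 (n = 6, exact p = 0.149). For Cox6b2, the testis form, the share of Cox6b2 and Cox6b1 was 8.15% ± 1.91 and 6.71% ± 2.04 (n = 6, exact p = 0.229). Adjusted over the 4 pairs every p was 0.229, and the groups overlapped for each pair. Without control replicate 1, which had the lowest control share of Cox8b (0.146%), that share had an exact permutation p of 0.026. This value was not adjusted over the pairs, and those with other lungs left out are not given here. The isoforms of a pair share no 31-base word.

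The muscle isoforms followed cardiomyocyte markers from lung to lung. The 10 markers, among them Myh6, Myl7, Tnnt2 and Nppa, summed to 79.6 to 1880 TPM in control lungs (median 521) and to 32.1 to 509 TPM in knockout lungs (median 206). All 10 had lower means in knockout lungs, 0 passed the adjusted test, and only Sln was at 0 in a lung, knockout replicate 6. Levels and marker sums, both on the log2 scale, were correlated over the 12 lungs, where both share the scaling of a library. Pearson's r with the marker sum was 0.909 for Cox6a2, 0.916 for Cox7a1 and 0.890 for Cox8b, and Spearman's rho 0.825, 0.923 and 0.916. The permutation p-values of r, adjusted over 12 relations (6 genes and 2 marker lists), were 0.00012, 0.00012 and 4e-04, and those of rho 0.00507, 0.00048 and 0.00048. Without the lungs farthest from the median, control replicate 4 and knockout replicate 6, r was 0.848, 0.912 and 0.829, and within a genotype it lay between 0.826 and 0.966.

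For the ubiquitous partners Cox6a1, Cox7a2 and Cox8a, r was -0.415, -0.376 and -0.391 with adjusted p-values of 0.215, 0.231 and 0.227 (permutation test). White adipocyte markers, which summed to 3.09 to 139 TPM in control and 4.34 to 23.4 TPM in knockout lungs, gave r of 0.754, 0.8005 and 0.845 for Cox6a2, Cox7a1 and Cox8b (permutation test, adjusted p = 0.0101, 0.00454 and 0.00168), and 0.446, 0.602 and 0.751 without control replicates 4 and 5. The amount of heart or other muscle tissue in each lung sample was not tested.

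**Figure D5:**
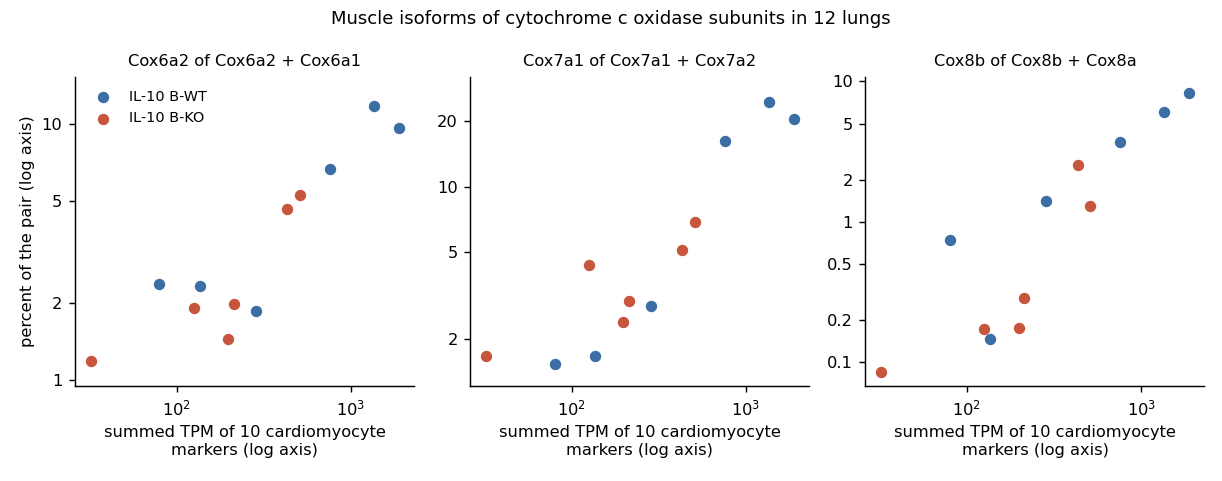
Share of the muscle isoform in the TPM of its isoform pair (vertical log axis, percent) against the summed TPM of 10 cardiomyocyte markers (horizontal log axis) for Cox6a2, Cox7a1 and Cox8b. Points are the 6 control and 6 knockout lungs; the shares are higher in the lungs with more marker TPM in both genotypes.

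Related mitochondrial and ribosomal genes were counted in lists, of which none had a gene with an adjusted p of at most 0.05. Of the 13 subunits encoded by mitochondrial DNA, 2 had a log2 fold change above 0 and 11 below it, with a median of -0.33 that was -0.04 without control replicate 5. Their sum was 2.66 to 39.9 times that of the nuclear subunit genes, with the highest ratio in control replicate 5 and 3.82 to 10.5 in the other control lungs. The sum leaves out the nuclear copies, among them Gm28661 at a mean of 22615 TPM, with 100% of its 31-base words in mitochondrial genes. The ratio and the fold changes of the 13 genes could therefore depend on how reads were divided with these copies. Of 46 tested assembly factors 40 were above 0 (median 0.15), where 63.2% of all genes were, and so were 15 of 17 genes of the tricarboxylic acid cycle and pyruvate dehydrogenase (0.18) and 9 of 10 regulators of mitochondrial gene expression (0.10). The proteins of the mitochondrial ribosome, which translates the mitochondrial subunits, were above 0 for 76 of 78 genes (0.25), and those of the cytosolic ribosome for 84 of 86 (0.36). Without control replicate 5 these medians were 0.05, 0.03, -0.06, 0.11 and 0.16, in the same order.

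The 10 OXPHOS genes outside the choice by symbol, among them the cytochromes c and c1 and the electron transfer flavoprotein, were above 0 in 8 cases. The exceptions were the isoforms Ndufa4l2 (124 ± 60.3 and 37.2 ± 18.5 TPM, SD, n = 6) and Cox4i2 (155 ± 71.3 and 58.5 ± 33.7 TPM), with log2 fold changes of -1.67 and -1.45 and adjusted p-values of 0.0719 and 0.177 in limma. The 5 pericyte markers had lower means in knockout lungs as well, summing to 61.8 to 132 TPM in control and 18.7 to 60.7 TPM in knockout lungs, and Notch3 and Pdgfrb passed the test. None of the 5 was at 0 in any lung, and their part in the levels of these isoforms was not tested.

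The genes outside the family whose levels were most like the median profile of the subunit genes over the 12 lungs were Mrpl12, a mitochondrial ribosomal protein, with a Pearson's r of 0.98, Cox17, a copper chaperone of complex IV, Siva1, Dbi and Tmem126a, with 0.97 each. Without control replicate 5, r was 0.91 to 0.93. Mrpl12 was at 45.9 TPM in control and 57.8 TPM in knockout lungs on average, and its log2 fold change of 0.37 was close to those of the subunit genes.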

How the data were processed

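Lung RNA of 12 mice was measured. The authors deposited 1 table of TPM, made per gene with RSEM, 1 column a lung. The submitters' processing notes also name fastp, HISAT and GRCm38.p5; versions are not given in the sources used here. TPM share 1 library total, so that a gene group with a large share lowers all others, and the read depth is unknown.

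Genotypes were compared with limma 3.58.1 in R 4.3.3 (trend, log2(TPM + 1), genotype only) over 15148 genes with at least 1 TPM in at least 6 libraries, adjusted by Benjamini-Hochberg. Fold changes on this scale understate those of low genes. Single values were compared by two-sided exact permutation tests and correlations by 100000 permutations, in Python 3.11.15 with NumPy 2.4.6, pandas 2.3.3 and SciPy 1.17.1, and figures drawn with matplotlib 3.10.9. Litters, cages and extraction batches are not given in the sources used here, and p-values measure only the spread between these samples. The fit was tested on simulated data.

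Coordinates and shared 31-base words come from GENCODE M21 (GRCm38), which held all 90 genes by ID. Nuclear copies of mitochondrial DNA are genes with at least 80% of such words in mitochondrial genes.

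The members and lists were chosen with earlier results of these data known. Named were the 8 genes with the smallest p in each direction, the highest and lowest of each complex, catalytic subunits, isoforms with their partners, and the 5 genes most alike; Ndufb1, Ndufb10, Cox7b, Ndufa4, Atp5e, Atp5g1, Atp5g3, Uqcr11 and genes with shared sequence were named after their values were seen. Alternatives were a pseudocount of 0.1, no filter or a mean TPM of at least 5, rescalings, median centring, quantile normalization, weights for each library, a block for the replicate number, and leaving out single libraries. Replicate numbers did not pair the lungs.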

Additional observations from a re-analysis of the deposited data

Results flagged for a closer look

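In 70 groups of 6 lungs, over the named genes and the library shares, the lowest or highest lung was compared with the others by Dixon's ratio, the gap to the next lung over the range of the group. Chance passes about 1 in 20 groups. In 10 groups the ratio was past the 95% limit, all 10 in control lungs and through replicate 5. It was the lowest lung for Ndufb4 (ratio 0.849), Ndufv1 (0.782), Atp5md (0.681), Uqcr10 (0.66), Atp5k (0.658), Uqcrfs1 (0.65), Sdhd (0.632), Cox4i1 (0.632) and the summed share of the nuclear subunit genes (0.669), and the highest for the share of mitochondrially encoded genes (0.69). These groups share 1 library and its scaling, and are not 10 separate events.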

How the results depend on the processing

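The count of 0 subunit genes at an adjusted p of at most 0.05 held under all alternatives, with lowest adjusted p-values from 0.0513 (array quality weights) to 0.530 (without knockout replicate 5). The 10 genes higher at an unadjusted p of at most 0.05 (1034 of all 15148 genes) changed in number with the setting, as did the count over all genes. There were 4 when rescaled without immunoglobulin genes (748 of 15089 genes) and 21 without mitochondrially encoded genes (1323 of 15357). Without their nuclear copies as well there were 26 (1478 of 15524), and without globin and immunoglobulin genes too 6 (800 of 15562). Median centring gave 20 (1567 of 15148) and array quality weights 18 (1687 of 15148). Leaving out each library in turn gave 3 to 20. There were 4 without control replicate 2 (883 of 14934 genes) and 5 without control replicate 5 (480 of 15051). Without knockout replicate 1, 3 or 5 there were 4 (754 of 14973), 3 (487 of 14966) and 4 (509 of 14988). By contrast, there were 20 without control replicate 1 (2678 of 14943) and 19 without knockout replicate 2 (1685 of 14998). The count of 0 genes lower became 1 (Sdha) in the scaling without mitochondrial, globin and immunoglobulin genes, where 2249 of 15562 genes were lower. With a library left out it was 0 to 1, the 1 being Cox8b. This was so without control replicate 1 (1068 of 14943 genes lower), knockout replicate 1 (835 of 14973) or knockout replicate 4 (774 of 15011). The cause was not tested.

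The replicate block left 5 subunit genes higher at an unadjusted p of at most 0.05, where 786 of all 15148 genes were. At an adjusted p of at most 0.05 it left 0, where 45 of all genes passed. Same-numbered lungs had correlations of -0.29 to 0.05 in their deviations, and 0 of 6 numbers correlated best with their own, so that they share only a number.

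Of the related mitochondrial and ribosomal genes, 0 passed the adjusted test, against 1 with array quality weights and 0 to 3 with a library left out (3 without control replicate 1, 1 without knockout replicate 4). The median of the subunit genes lay between 0.07 and 0.35 and its distance to all genes between 0.10 (quantile normalization) and 0.28 (no filter). The rescalings and median centring shift all genes of a library nearly alike and could hardly change that distance. Of 768 log2 fold changes of 32 named genes under the alternatives, 20 changed sign, those of Ndufs1, Ndufv1, Sdhc, Cox6b2 and Atp5a1. Ndufs1 was at -0.00659 without immunoglobulin genes, -0.000773 without mitochondrially encoded genes, -0.0311 without their nuclear copies as well, -0.17 without globin and immunoglobulin genes too, -0.0732 under quantile normalization, -0.0602 under median centring, -0.0103 with array quality weights, -0.0672 without control replicate 5 and -0.00488 without knockout replicate 1. In the scaling without mitochondrial, globin and immunoglobulin genes, Ndufv1 was at -0.12, Sdhc at -0.0142, Cox6b2 at -0.10 and Atp5a1 at -0.0507. Under quantile normalization Ndufv1 was at -0.0488, Cox6b2 at -0.00201 and Atp5a1 at -0.0487. Ndufv1 was also at -0.00823 under median centring, -0.0472 with array quality weights and -0.0157 without control replicate 5, where Cox6b2 was at -0.0286. With each library left out in turn, Ndufs1 lay between -0.0672 and 0.10, Ndufv1 between -0.0157 and 0.15 and Cox6b2 between -0.0286 and 0.26. TPM give no depth, so that counting error is unknown.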

Other observations

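The fold changes varied with transcript length, here the longest protein-coding transcript in GENCODE M21, which was looked at after seeing the data. Of the 81 tested subunit genes with such a length, 47 had transcripts under 1000 bases, with a median log2 fold change of 0.33, 24 had 1000 to under 2000 bases (0.27) and 10 had 2000 bases or more (0.24). The other genes tested had medians of 0.25 (747 genes), 0.16 (2801 genes) and 0.08 (9867 genes) in these classes, and without control replicate 5 of 0.12, 0.03 and -0.03, against 0.17, 0.13 and 0.14 for the subunit genes. In these classes 44 of 47, 24 of 24 and 9 of 10 subunit genes had a log2 fold change above 0, against 71.5%, 69.7% and 62.7% of the other genes. Genes are not independent replicates, and no test was made of these differences.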
